A study of Mus musculus with 2 samples.

Results

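A set of 10 genes that act at the surface of blood vessel endothelium was followed in RNA of the mammary gland: Sele, Selp, Cd34, Emcn, Madcam1, Icam1, Icam2, Vcam1, Pecam1 and Plvap. They are 10 of the 54438 genes to which the listed transcripts belong, and were taken as all transcripts of each symbol in GENCODE M21, summed per gene and also read one by one. All 10 had reads and passed 1 TPM (transcripts per 1000000) in at least 1 library. The genes were chosen with their values in these libraries known, so what follows is a description with no test.

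The series holds 2 libraries, titled W1 and W2, each of RNA from mammary gland basal cells of wild type C57BL/6 mice 8 weeks of age, sorted by flow cytometry and lysed in a Smart-seq reagent. The series set out to profile basal cells with and without Pd-l1, the ligand of the T cell receptor Pd-1. The labels do not say which library is which, so neither was placed in a class and values of the libraries stand side by side. The Pd-l1 gene itself, Cd274, had 649 reads and 59.1 TPM in W1 and 0 reads in W2. That RNA value was not used to place the libraries, and how it relates to the sort was not tested. The number of mice or cells behind a library and any pooling of animals are not stated here, and no library has a replicate. The step between the deposited values was used to recover reads, which gave 3055834 reads in W1 and 3800022 in W2. Intervals on reads are exact 95% intervals and cover counting error only.

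The basal label was checked against markers. In W1 the basal markers Krt5, Cnn1 and Myh11 had 0 reads, Krt14 had 1 and Acta2 had 37. The 8 basal markers summed to 6.62 TPM in W1 against 33369 TPM in W2. The W2 sum was led by Acta2 (18192 TPM) and Krt17 (12794.5 TPM), and the basal marker Trp63 had 0 reads in both libraries. The 14 endothelial markers summed to 3126 TPM in W1 and to 2.36 TPM in W2, where 12 of the 14 had 0 reads. In W1 the sum was led by Cldn5 (1590 TPM), Cdh5 (584 TPM) and Kdr (352 TPM). Not all 14 were read well there: Erg had 0 reads in W1, Tek had 1, Tie1 had 2 and Vwf had 12. Library W2 also held luminal markers (258 TPM in W1 and 5019 TPM in W2) and fibroblast markers (3.19 and 206 TPM), so it is not shown to be basal alone. Library W1 goes against its label on the basal and endothelial markers, and below each library is called by its title alone. In bulk RNA, fewer cells of a type and less RNA per cell cannot be told apart.

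Leukocytes leave the blood in steps that these proteins carry out. Selectins on activated endothelium catch passing cells by their carbohydrates, ligands of the immunoglobulin family then hold leukocyte integrins, and junction proteins let the cell pass between endothelial cells. Sialomucins such as Cd34 and endomucin cover the luminal surface, and Plvap forms the diaphragms of fenestrae and caveolae. Icam1 and Vcam1 are also made by other cell types, among them epithelial and stromal cells after inflammatory signals.

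Of the 10 genes, 9 were higher in W1 by 2-fold or more and 1, Icam1, was higher in W2. The rule was a log2 ratio of TPM + 1 of at least 1 in size, a scale that understates the ratio of low genes. Among all 12587 genes compared, 34.7% were higher in W1 and 32.9% in W2 by the same rule. The median log2 ratio was 4.23 over the 10 genes and -0.07 over all genes compared. In W2, 5 of the 10 had 0 reads (Sele, Selp, Emcn, Icam2 and Pecam1), and 10.3% of genes with 50 or more reads in W1 had 0 reads there. The genes were chosen on this same contrast, so nothing is read from these counts.

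**Figure D1:**
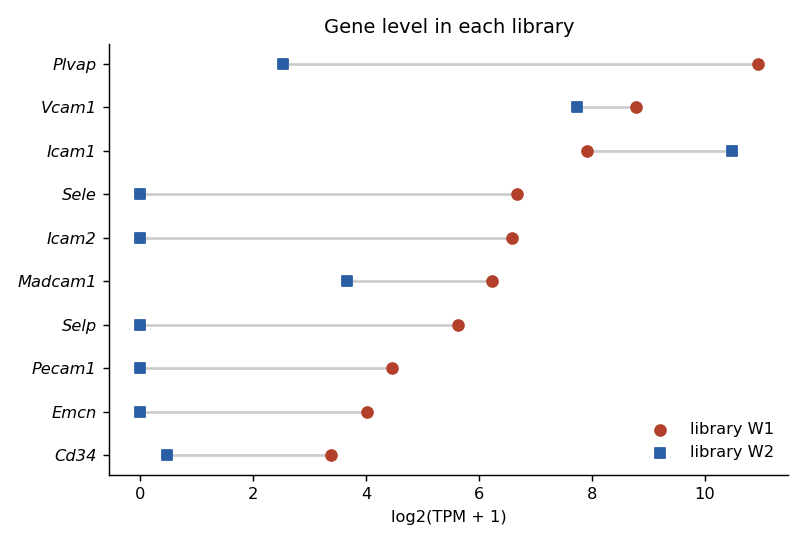
Level of each gene in W1 (circles) and W2 (squares) as log2(TPM + 1), with genes ordered by their level in W1. Each point is 1 library. Circles of 9 genes lie to the right of their squares and Icam1 is the exception, at 241 TPM in W1 and 1422 TPM in W2.

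**Figure D2:**
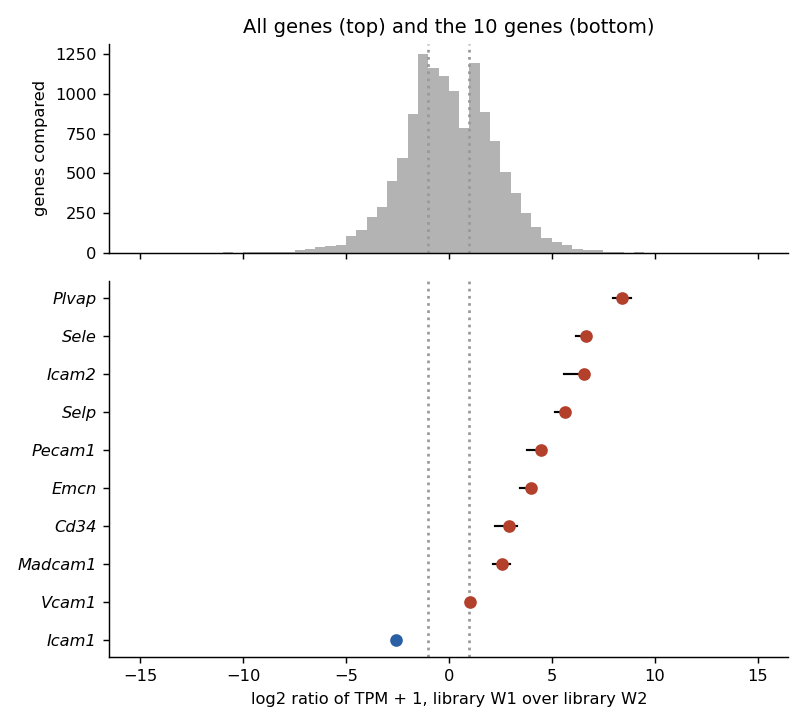
Top, number of genes in each bin of the log2 ratio of TPM + 1 (W1 over W2) among the 12587 genes compared. Bottom, the same ratio for the 10 genes, with lines for the 95% counting interval and dotted lines at the 2-fold rule. For Sele, Selp, Emcn, Icam2 and Pecam1, with 0 reads in W2, the line ends at the point. That end is set by the scale of TPM + 1 and is not an upper limit on the ratio. Plvap has the largest ratio of the 10 at 8.40, Vcam1 lies at the dotted line at 1.04 and Icam1 lies below 0 at -2.56.

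The endothelial selectins were read in W1 and not in W2. Sele (ENSMUSG00000026582.6, chr1:164048234-164057677, plus strand, GRCm38) encodes E-selectin, which endothelium makes after stimulation by cytokines. It had 895 reads and 101 TPM in W1 and 0 reads in W2. With a floor of 3 reads for W2, the level in W1 was at least 300.4-fold higher. Sele has 1 listed transcript and all of its 2863 windows of 50 bases are found in no other listed transcript, so its reads do not depend on how reads were split.

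Selp (ENSMUSG00000026580.16, chr1:164115264-164150026, plus strand) encodes P-selectin, which endothelial cells and platelets store in granules. It had 470 reads and 48.4 TPM in W1 and 0 reads in W2, at least a 158-fold difference. Of those reads, 460 lay on the coding transcript Selp-205 and 10 on the retained-intron transcript Selp-204. Platelet markers were low in both libraries: of 6, 3 had 0 reads in both, Pf4 and Gp9 had 1 read each in W1, and Itga2b stood at 4.05 and 0.677 TPM.

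The bases before the start of 4 of the genes are shown because these genes bind leukocytes or are classic cytokine-inducible genes and Icam1 differed in the direction opposite to the other 3. Each run is the 250 bases before the RefSeq start (GRCm38.p6), written 5′ to 3′ on the plus strand, with matches to the NF-kB motif (GGGA, any 4 bases, then CC) or the ETS motif CAGGAAG on either strand in capitals. Sele is chr1:164047984-164048233, Selp is chr1:164115014-164115263, Madcam1 is chr10:79664309-79664558 and Icam1 is chr9:21015690-21015939.
Sele: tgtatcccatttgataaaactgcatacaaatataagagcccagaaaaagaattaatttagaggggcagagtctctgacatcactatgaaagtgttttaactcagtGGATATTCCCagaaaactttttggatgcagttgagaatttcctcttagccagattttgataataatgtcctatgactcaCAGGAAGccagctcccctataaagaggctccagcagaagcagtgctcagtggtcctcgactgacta
Selp: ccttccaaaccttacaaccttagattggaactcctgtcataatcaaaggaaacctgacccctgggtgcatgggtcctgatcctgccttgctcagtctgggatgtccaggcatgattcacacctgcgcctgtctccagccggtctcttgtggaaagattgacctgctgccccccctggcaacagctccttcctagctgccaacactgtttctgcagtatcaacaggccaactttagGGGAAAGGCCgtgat
Madcam1: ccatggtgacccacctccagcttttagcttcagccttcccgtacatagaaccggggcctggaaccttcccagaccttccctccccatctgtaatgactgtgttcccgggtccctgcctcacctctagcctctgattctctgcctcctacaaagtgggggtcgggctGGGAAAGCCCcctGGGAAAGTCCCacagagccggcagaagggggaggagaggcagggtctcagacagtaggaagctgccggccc
Icam1: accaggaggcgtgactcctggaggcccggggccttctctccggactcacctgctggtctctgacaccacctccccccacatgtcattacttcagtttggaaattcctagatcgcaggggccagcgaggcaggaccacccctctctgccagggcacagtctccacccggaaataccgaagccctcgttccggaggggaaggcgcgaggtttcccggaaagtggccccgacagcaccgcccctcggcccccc

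RefSeq promoter entries were matched for 6 of the 10 genes, and Icam2, Vcam1, Pecam1 and Plvap were not matched. The NF-kB motif was found before Sele (145 bases before the start), Selp (15 bases before) and Madcam1 (3 overlapping or adjacent matches, from 84, 71 and 70 bases before). The ETS motif was found before Sele (66 bases before), Cd34 (142) and Emcn (174). Icam1 had no match to either as spelled here. Among all 32851 promoter entries, 17.6% held the NF-kB motif and 10.8% held the ETS motif in the same window. A match is a run of letters and is not a shown binding site, and the absence of these letters says nothing on a factor.

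The sialomucins Emcn and Cd34 were the lowest of the 10 in W1 on the TPM scale. Emcn (ENSMUSG00000054690.17, chr3:137341067-137432185, plus strand) encodes endomucin, a glycoprotein of venous and capillary endothelium. It had 128 reads and 15.1 TPM in W1 and 0 reads in W2, at least a 42.96-fold difference. Its reads were divided between the coding transcript Emcn-202 (93 reads) and the retained-intron transcript Emcn-203 (35 reads), so 27.3% of them (interval 19.8 to 35.9%) lay on the second.

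Cd34 (ENSMUSG00000016494.9, chr1:194938819-194961279, plus strand) encodes a sialomucin of endothelium and blood progenitors. It stood at 9.44 TPM in W1 and 0.385 TPM in W2, from 83 and 3 reads, a ratio of 27.9 (interval 9.21 to 138). In W1, 60 of the 83 reads (72.3%, interval 61.4 to 81.6%) lay on the retained-intron transcript Cd34-204. On the coding transcript Cd34-202 alone the libraries had 23 and 3 reads, a ratio of 7.72 (interval 2.33 to 40.2). The gene sum therefore gave a larger ratio than its coding transcript did, with intervals that overlap.

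Madcam1 (ENSMUSG00000020310.9, chr10:79664559-79668537, plus strand) encodes the vascular addressin of gut and mammary vessels, which binds the integrin of Itga4 with Itgb7. It was read in both libraries, with 321 reads and 73.8 TPM in W1 and 51 reads and 11.6 TPM in W2. Library W1 was 6.34-fold higher (interval 4.70 to 8.69). All of these reads lay on the transcript Madcam1-201, and Madcam1-202, with 49 windows of its own, had 0 reads in both libraries.

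The ligands of leukocyte integrins differed in direction among themselves. Icam2 (ENSMUSG00000001029.15, chr11:106377656-106388075, minus strand), which encodes a ligand present on resting endothelium and platelets, had 368 reads and 94.7 TPM in W1. Library W2 had 0 reads, at least a 123.5-fold difference, and all reads lay on the coding transcript Icam2-201. The other 4 Icam2 transcripts had 0 reads and between 0 and 398 windows of their own.

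Icam1 (ENSMUSG00000037405.8, chr9:21015985-21028817, plus strand) encodes the inducible ligand of the Itgb2 integrins. It was higher in W2, unlike the other 9 genes, at 241 TPM in W1 and 1422 TPM in W2, from 1845 and 10997 reads. The ratio was 5.92 toward W2 (interval 5.63 to 6.22). Markers of basal cells (6.62 and 33369 TPM), luminal cells (258 and 5019 TPM) and fibroblasts (3.19 and 206 TPM) were higher in that library too, and their part in the Icam1 value was not tested. Its retained-intron transcript Icam1-202 went the other way, with 42 reads in W1 and 21 in W2, a ratio of 2.01 toward W1 (interval 1.17 to 3.58). That transcript held 2.28% of Icam1 reads in W1 (interval 1.65 to 3.06%) and 0.191% in W2 (0.118 to 0.292%). Over all genes, retained-intron transcripts held 2.70% and 1.14% of reads in the 2 libraries. Icam4 and Icam5, which follow Icam1 on chromosome 9, had 0 reads in both libraries.

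Vcam1 (ENSMUSG00000027962.14, chr3:116109949-116129688, minus strand) encodes the ligand of the Itga4 integrins. It was abundant in both libraries, at 441 TPM in W1 and 213 TPM in W2, from 4128 and 1989 reads. The ratio was 2.09 (interval 1.98 to 2.21), and its log2 ratio of 1.04 lay just past the 2-fold rule. Vcam1 and Icam1 were the 2 genes of the 10 above 200 TPM in both libraries, and they differed in opposite directions.

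Reads on Vcam1 came from 2 coding transcripts in both libraries. Vcam1-201 has a coding sequence of 2217 bases, and Vcam1-203 shares its first 928 coding bases and ends after 1035. In the mouse a shorter Vcam1 protein with a glycolipid anchor is made by alternative splicing, and whether Vcam1-203 encodes it was not tested. The last shared coding base is chr3:116124383 (GRCm38, minus strand), after which Vcam1-201 goes on at chr3:116121073 and Vcam1-203 at chr3:116123793. The coding strand is shown around that point, 5′ to 3′, with the 30 shared bases in lower case and the 60 that follow in each form in capitals. They are shown because sequence past that point is what tells the coding parts of the 2 forms apart.
Vcam1-201: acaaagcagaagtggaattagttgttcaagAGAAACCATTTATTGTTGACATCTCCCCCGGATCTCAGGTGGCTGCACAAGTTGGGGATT
Vcam1-203: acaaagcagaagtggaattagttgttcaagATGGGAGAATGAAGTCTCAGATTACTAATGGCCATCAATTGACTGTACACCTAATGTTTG

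Vcam1-201 had 2635 reads in W1 and 1263 in W2, a ratio of 2.10 (interval 1.96 to 2.25). Vcam1-203 had 1409 and 725 reads, a ratio of 1.96 (interval 1.79 to 2.14). Of the reads on the pair, the shorter form took 34.8% in W1 (interval 33.4 to 36.3%) and 36.5% in W2 (interval 34.3 to 38.6%). These intervals overlap, which does not decide whether the use of the 2 forms differed, and the difference itself was not tested. The retained-intron transcript Vcam1-204 had 84 reads in W1 and 1 in W2. The shares are of reads and are not corrected for length. On TPM, Vcam1-201 and Vcam1-203 stood at 251 and 184 in W1 and at 119 and 93.9 in W2.

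Pecam1 (ENSMUSG00000020717.19, chr11:106654217-106750628, minus strand) encodes Cd31, a junction protein of endothelium that is also found on platelets and leukocytes. It stood at 20.95 TPM in W1 from 136 reads, with 0 reads in W2, at least a 45.6-fold difference. All 136 reads lay on the retained-intron transcript Pecam1-208 (chr11:106661185-106663326), and the 6 coding transcripts had 0 reads in both libraries. Those coding transcripts have between 18 and 510 windows of their own, because 8 listed transcripts overlap at this gene. With coding transcripts only, Pecam1 was listed at 0 in both libraries, so the deposited tables give no level for its coding messenger RNA.

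Plvap (ENSMUSG00000034845.6, chr8:71497765-71511752, minus strand) was the highest of the 10 in W1. It stood at 1957 TPM from 11783 reads in W1 and at 4.78 TPM from 29 reads in W2, a 409-fold difference (interval 285 to 611). It made up 65.2% of the summed TPM of the 10 genes in W1, and Icam1 made up 86.1% of that sum in W2. Plvap has 1 listed transcript and no windows shared with another.

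Reads lay mostly on transcripts with much sequence of their own. The 10 genes have 37 listed transcripts, of which 16 had a read in at least 1 library. Of 17 transcripts with more than 500 windows of their own, 15 had reads, and the exceptions were Pecam1-201 (510 windows) and Cd34-205 (2185 windows). Of 20 transcripts with 500 or fewer, 1 had reads, Cd34-202 (203 windows). A transcript of these genes listed at 0 with few windows of its own is thus not shown to be absent.

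**Figure D3:**
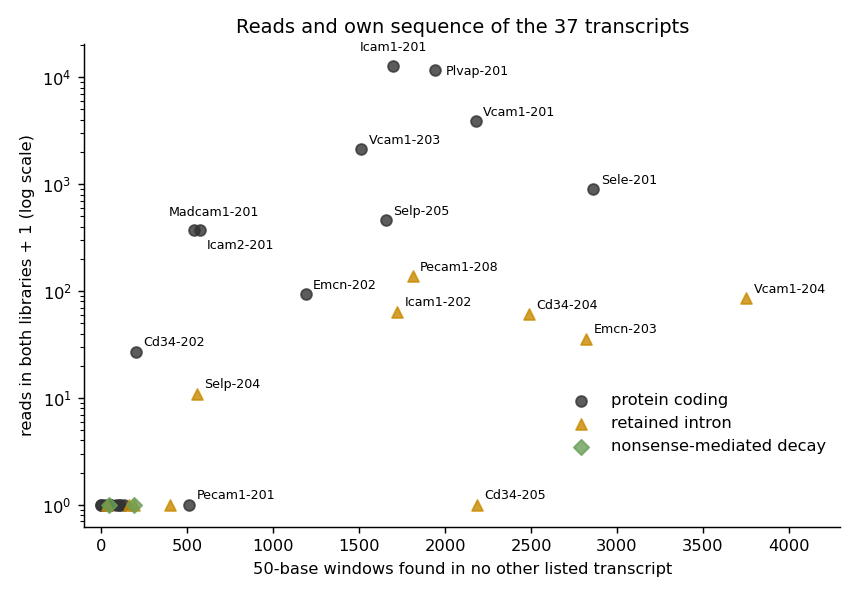
Each point is 1 of the 37 listed transcripts of the 10 genes, by the number of its 50-base windows found in no other listed transcript and its reads in both libraries + 1 (log axis), with marker shape for the annotated class. Transcripts with few windows of their own lie at the bottom with 0 reads, Cd34-202 with 203 windows being the exception, and the retained-intron transcript with the most reads is Pecam1-208 at 136.

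TPM divides reads by the whole length of a transcript, so levels were also given as reads per 1000 windows of its own and per 1000000 reads, for the coding transcript with the most reads. That value is a level only if reads in shared windows were left out of the counts. The sources used here do not give the counter, so the order below rests on an assumption. In W1 the order was Plvap-201 (1990, interval 1954 to 2026), Vcam1-201 (396, 381 to 411), Icam1-201 (348, 332 to 365), Icam2-201 (210.2, 189 to 233), Madcam1-201 (194, 174 to 217), Sele-201 (102, 95.7 to 109), Selp-205 (91.0, 82.8 to 99.7), Cd34-202 (37.1, 23.5 to 55.6) and Emcn-202 (25.6, 20.7 to 31.4). The neighbours Icam2 and Madcam1, Sele and Selp, and Cd34 and Emcn had overlapping intervals. On TPM the order put Sele above Icam2 and Madcam1 and put Emcn above Cd34. In W2 the same measure was 1704 for Icam1-201 (interval 1672 to 1736), 153 for Vcam1-201 (144 to 161), 24.8 for Madcam1-201 (18.5 to 32.6), 3.94 for Plvap-201 (2.64 to 5.66) and 3.89 for Cd34-202 (0.802 to 11.4).

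On that scale the retained-intron transcripts with reads of Emcn, Selp, Vcam1, Cd34 and Icam1 lay between 4.06 and 7.99 in W1. Pecam1-208 stood above them at 24.5 (interval 20.6 to 29.0), near the 25.6 of the coding transcript of Emcn. The other 5 retained-intron transcripts of the 10 genes had 0 reads, and Cd34-205, with 2185 windows, had an upper limit of 0.552 in W1.

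Genes annotated on the other strand overlapped 5 of the 10, and for 4 of them the overlapping genes had reads. The library kit is stranded per the labels, but the sources used here do not say whether the counting used strand, so reads of the 2 strands cannot be told apart. Gm47079, which overlaps 511 exon bases at the end of Icam1 and also spans Icam4, had 105 and 579 TPM from 1112 and 6151 reads, a ratio of 5.49 toward W2 (interval 5.15 to 5.86). Icam1 itself had a ratio of 5.92 toward the same library. At Selp, Gm16548 (1030 reads) and Gm16587 (364 reads) were read in W1 with 0 reads in W2, as Selp was.

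At Cd34, Gm16897 had 368 and 16 reads, which is more than Cd34 itself had in either library, a ratio of 23.2 toward W1 (interval 14.1 to 40.9). These overlapping genes thus lay on the same side as Icam1, Selp and Cd34. Gm43109 at the start of Vcam1 was the exception, with 275 and 412 reads, a ratio of 1.49 toward W2 (interval 1.27 to 1.74) where Vcam1 differed toward W1. Gtpbp3, which overlaps Plvap without sharing exon bases, had 0 reads in both libraries.

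**Figure D4:**
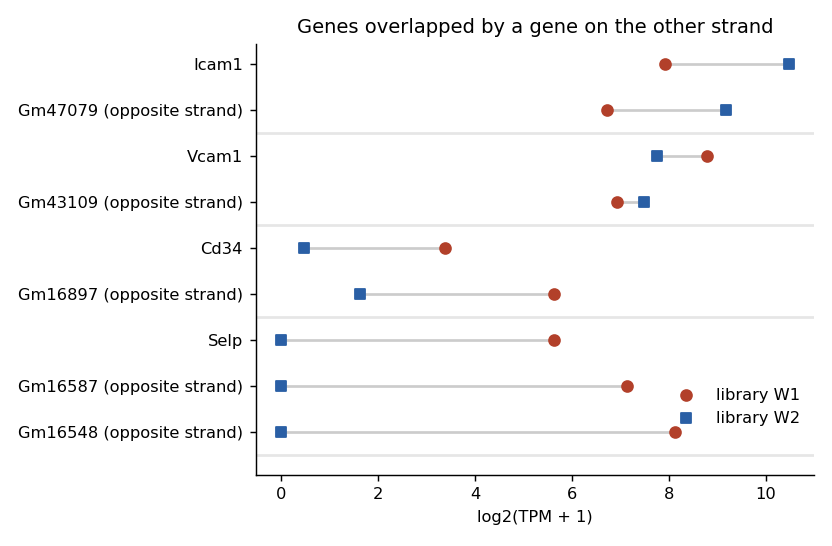
Level as log2(TPM + 1) in W1 (circles) and W2 (squares) of Icam1, Vcam1, Cd34 and Selp and of the genes annotated over them on the other strand. Each pair differs in the same direction as its neighbour at Icam1, Cd34 and Selp, and in opposite directions at Vcam1, where Gm43109 stands at 121 TPM in W1 and 179 TPM in W2.

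The partners of the 10 genes in leukocyte traffic were read from lists, beside the median log2 ratio of -0.07 over all genes compared and the 34.7% and 32.9% of those genes that were higher in W1 and in W2. Of 16 genes for selectin ligands and their synthesis, 10 were compared, 7 were higher in W1 and 1 in W2 (median 1.46). Chst2, a sulfotransferase of selectin ligands, stood at 61.4 and 0.134 TPM. The sialyltransferase gene St3gal4 (180 and 2.82 TPM) and Podxl, a sialomucin related to Cd34 (42.7 and 0 TPM), were also higher in W1. Cd24a, a mucin-like surface protein gene that can bind P-selectin and marks epithelium, was the 1 higher in W2 (251 and 673 TPM).

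The leukocyte side of these contacts was read from lists too. Of 7 leukocyte integrin genes, whose products bind Icam1, Vcam1 and Madcam1, 6 had 0 reads in both libraries, which does not show that they were silent where transcripts share sequence. Itgb1, a subunit that most cells make, stood at 81.8 and 120 TPM, within 2-fold. Of 14 leukocyte markers, 7 had 0 reads in both libraries and Ptprc had 6 reads in W1. Over all 54438 genes, 15809 were above 0 TPM in at least 1 library. Genes at 0 in both are thus common, and nothing is read from these counts. The leukocyte markers summed to 95.5 TPM in W1 and 7.17 TPM in W2, led in W1 by Lyz2 (46.6 TPM) and Cd79a (32.8 TPM). Their part in the values of Pecam1, Selp and Icam2 was not tested.

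Junction proteins of transmigration were higher in W1 in 6 of 8 compared, and 0 were higher in W2 (median 1.91). Cdh5, VE-cadherin, stood at 584 and 0 TPM, the junctional adhesion molecule gene Jam3 at 514 and 11.1 TPM and Nectin2 at 308 and 73.5 TPM. Of 5 compared cytoskeletal partners, 1 was higher in W1 (Cttn, from 3 reads) and 2 in W2 (median 0.61). Ezr, which encodes ezrin, a linker of surface proteins to actin in epithelium, stood at 18.5 and 171 TPM, and Arhgef26, which encodes a guanine nucleotide exchange factor, at 3.98 and 18.4 TPM.

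Receptors and relays that lead to the induction of Sele, Icam1 and Vcam1 had counts near those of all genes. Of 15 compared, 7 were higher in W1 and 4 in W2 (median 0.35), beside 34.7% and 32.9% of all genes. The receptor genes Tnfrsf11a (52.5 and 8.92 TPM) and Tnfrsf1b (33.5 and 0 TPM) and the kinase gene Ikbkb (21.01 and 0.406 TPM) were higher in W1. The NF-kB subunit gene Rela (101 and 221 TPM), the receptor subunit gene Il1rap (0 and 23.9 TPM) and the kinase gene Chuk (1.13 and 8.45 TPM) were higher in W2. Other NF-kB subunit genes went the other way. Nfkb1 stood at 17.9 TPM in W1 and 3.10 TPM in W2, and Nfkb2 had 16 and 1 reads. Relb was too low to compare. Chuk rested on 8 and 19 reads, a read ratio of 2.36 toward W2 whose interval (0.986 to 6.23) includes no difference. Tnfrsf1a, which encodes the widely expressed TNF receptor, lay within 2-fold.

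Among 8 compared genes of other surface glycoproteins, 5 were higher in W1 and 2 in W2 (median 1.90). Cd47, which encodes a signal that holds back phagocytes (216 and 51.8 TPM), and the endothelial C-type lectin genes Cd93 (122 and 0.049 TPM) and Clec14a (40.4 and 2.73 TPM) were higher in W1. The tetraspanin genes Cd9 (125 and 2311 TPM) and Cd151, the latter from 4 reads, were higher in W2.

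Markers of vessel type were read as well. Of the lymphatic markers, Lyve1 (2408 TPM), Prox1 (75.3 TPM) and Flt4 (40.5 TPM) were read in W1 with 0 reads in W2. Ccl21a, the highest of that list in both libraries (10177 TPM in W1 and 7543 TPM in W2), and Pdpn (438 and 531 TPM) lay within 2-fold. Reln was higher in W2 (0.056 and 4.43 TPM). Of the 5 high endothelial or venous markers, 4 were higher in W1: Nr2f2 (83.7 and 3.73 TPM), Ackr1, a chemokine-binding protein of venules (83.6 and 0 TPM), Glycam1 (13 reads) and Chst4 (7 reads). Ephb4 had 0 and 19 reads. Library W1 thus held reads of some markers on both lists, the venous list being led by Nr2f2 and Ackr1. These markers do not show which vessel types the library held, and from which cells the 10 genes were read was not tested.

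**Figure D5:**
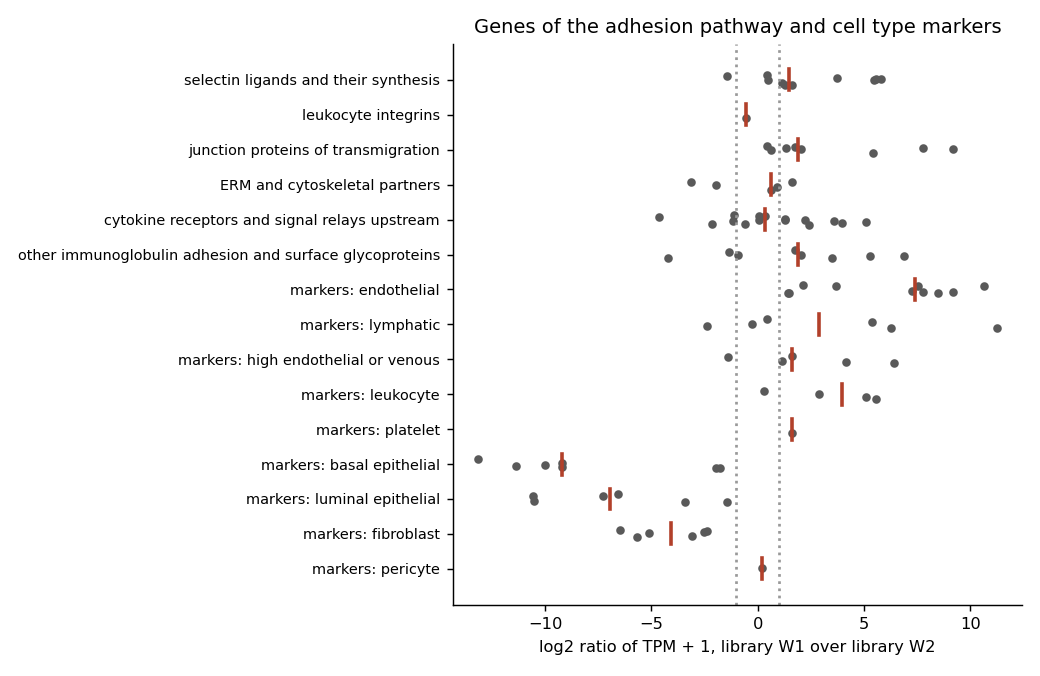
Log2 ratio of TPM + 1 (W1 over W2) of the compared genes in each list of adhesion partners and of cell type markers. Each point is 1 gene, the vertical bar is the median of the list and dotted lines mark the 2-fold rule. All 10 compared endothelial markers lie to the right of the rule and the 7 basal, 6 luminal and 6 fibroblast markers compared lie to the left of it.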

How the data were processed

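RNA of 2 libraries, W1 and W2, was read from tables in which the authors deposited TPM and, in a second table, FPKM for 137767 transcripts. Per the submitters' processing notes, the tool named is Bowtie 0.12.2, and mm8 and GRCm38 are listed as builds with no stated role. The sources used here do not give the counter or the annotation. The tables hold 0 value columns beside those used. Identifiers of 137654 transcripts matched GENCODE M21 (GRCm38), which gave symbols, coordinates and lengths.

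FPKM times length falls on multiples of the value of 1 read. Within 0.1 read, 98.5% and 98.0% of transcripts above 0 came out whole in W1 and W2. Recovery was also run on simulated reads made with the same formula and lengths, which checks the arithmetic only. Depth from the step is 3055834 and 3800022 reads, while the recovered reads sum to 3065848 and 3826943. A library with 0 reads was given a floor of 3 reads. Ratios of reads are scaled to TPM, with Clopper-Pearson intervals at 95%. Levels per own sequence have exact Poisson intervals. Windows of 50 bases were compared with both strands of every listed transcript, since the sources used here do not give the read length.

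The statistic was the log2 ratio of TPM + 1 for genes at 1 TPM or more in a library. All 10 genes, and per pathway list (not the cell type markers) the genes past the 2-fold rule with the 3 largest read numbers on each side, are named. 1 gene of the lists is not reported here. Members and lists were chosen with earlier results of these data known. With no groups and no replicates no test was made. A planned search for motifs in protein sequences was not run. Software was Python 3.11.15 with scipy 1.17.1, numpy 2.4.6, matplotlib 3.10.9 and pandas 2.3.3.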

Additional observations from a re-analysis of the deposited data

How the results depend on the processing

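The counts of 9 genes higher in W1 and 1 in W2 were recomputed under 10 alternatives: pseudocounts of 0.1 and 5, no filter, at least 20 reads, FPKM, reads scaled to the library total, coding transcripts only, the transcript with the most reads, TPM rescaled without mitochondrially encoded and ribosomal protein genes and Gm23935, and scaling by the trimmed mean of M-values. Under 9 of them both counts were as reported. With coding transcripts only, Pecam1 dropped out and 8 genes were higher in W1. No gene of the 10 changed direction. Vcam1 ranged from 1.02 to 1.38 and Icam1 from -2.59 to -2.25 on the log2 scale. The ratios of the 5 genes with 0 reads in W2 depend on the pseudocount, for Sele from 4.41 to 9.99. That of Cd34, with 3 reads in W2, does so too, from 1.42 to 4.30, and was 1.52 with coding transcripts only. Over all genes, 2112 were higher in W1 and 2509 in W2 with a pseudocount of 5, 2043 and 2454 with coding transcripts only, and 2664 and 3062 with at least 20 reads, against 4370 and 4142 as reported. Other scalings moved the median log2 ratio of all genes by up to 0.33, and relative to that shift Vcam1 and Icam1 were little changed. Gm23935 held 27.7% of TPM in W1 and 4.13% in W2. No paired analysis was possible because the labels place neither library in a group and each is 1 sample.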
